A study of Mus musculus with 16 samples.

Results

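The clustered protocadherins are cell-surface adhesion proteins encoded by the α, β and γ gene clusters, which lie side by side on mouse chromosome 18. All genes of the deposited count table whose names place them in these clusters were taken, which gave 59 members among 22869 genes: 15 in the α cluster, 22 in the β cluster and 22 in the γ cluster. The study set pancreatic β cells, the insulin-producing cells of the islet, from old mice beside those from young mice. For RNA, live β cells were sorted by flow cytometry from MIP-GFP/Bl6 mice, in which the insulin promoter drives green fluorescent protein in all groups. The 3 old RNA libraries came from mice of 15, 16 and 17 months, the 2 young ones from mice of 4 to 6 weeks, and each was a pool of 5 to 10 mice. Histone marks and DNA methylation came from C57Bl6 mice of 16 to 18 months and of 4 to 6 weeks, with 1 library per age analysed here. For the old bisulfite pool the series' design text gives 18 to 22 months instead, and it names 2 old replicas for H3K27me3. The young bisulfite library pooled 10 mice and the old H3K27me3 sample 4 to 7 mice. The acetylation mark H3K27ac was measured in young cells only. The labels name no treatment for any group.

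Each α and γ member has its own promoter and its own long variable exon, which is spliced to constant exons at the end of the cluster that all members of that cluster share. The β members are separate genes without such constant exons. In neurons each cell uses a small and largely random choice of these promoters, which gives the cell a surface identity used to tell its own branches from those of its neighbours, and promoter DNA methylation, the looping factor CTCF and cohesin take part in that choice. The C-type members at the end of the α and γ clusters (Pcdhac1, Pcdhac2, Pcdhgc3, Pcdhgc4 and Pcdhgc5) are chosen less randomly.

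RNA totals over genes were 23559908 to 33562822 counts in the old libraries, and 6377619 and 12892123 in the young libraries, called the shallower and the deeper one here. The β-cell markers (Ins1, Ins2, Iapp and 5 others) summed to between 274993 and 388811 CPM, a count scaled to the library's total, in all 5 libraries. Most of that sum was Ins1 and Ins2, whose libraries overlapped between the ages, as did those of Nkx6-1. Iapp and Slc2a2 rose in old cells (edgeR adjusted p = 0.0245 and 0.0315), as 3.17% of all genes tested did. Pdx1, G6pc2 and Ucn3 had every old library above both young ones (18.7% of all genes tested) without passing the test. Summed over each list, the markers of other pancreatic cell types were higher in both young libraries, although single markers such as Krt7 of duct cells were not. The 5 α-cell markers (of the glucagon cell, unrelated to the α cluster) summed to 898, 1797 and 1586 CPM in the old libraries against 2116 and 33937 in the young, and the 7 stellate-cell markers to 5.45 to 8.92 against 238 and 3482. The part of these cells in the results below was not tested. The 8 neuron markers, which include Snap25 and Elavl4 of endocrine cells, summed to 389 to 442 CPM in old and 401 and 408 CPM in young libraries, with Dbh at 0 in all old libraries. Most of that sum was Snap25 and Elavl4. Prph, a marker of peripheral neurons, fell from 3.45 and 28.8 CPM in young to 0.0375, 0.0298 and 0 CPM in old libraries (edgeR adjusted p = 0.0104), and Rbfox3 and Chat had every old library below both young ones without passing the test. The 6 glial markers summed to 5.39 to 6.22 against 27.3 and 28.3 CPM, with Foxd3 at 0 in the old libraries. In such bulk libraries, fewer expressing cells and less RNA per cell cannot be told apart.

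RNA of the α cluster was higher in old than in young β cells, RNA of the γ cluster was high at both ages, and the β members stood at low levels that varied from library to library. Per kilobase of transcript, the median α member stood at 19.3, 22.0 and 17.2 CPM in the old libraries and at 1.79 and 4.02 in the young ones. The median γ member stood at 33.6, 32.8 and 31.5 CPM per kilobase in old and 25.5 and 29.2 in young libraries. The median β member stood at 0.754, 0.323 and 0.446 CPM per kilobase in old and 0.134 and 0.223 in young libraries. The median γ member was thus above the median α member at both ages, by a wide margin in the young libraries, and the median β member lay below both. These medians are not of like units. An α or γ value includes reads of constant exons shared by its cluster, whereas a β value is of 1 gene. Summed over the 22 β members, CPM per kilobase was 26.3, 20.6 and 26.2 in old and 33.8 and 18.0 in young libraries. Single β members exceeded that α median in a young library: in the shallower young library Pcdhb6 reached 7.63 and Pcdhb13 5.46 CPM per kilobase, and in the deeper one Pcdhb17 reached 4.55.

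**Figure D1:**
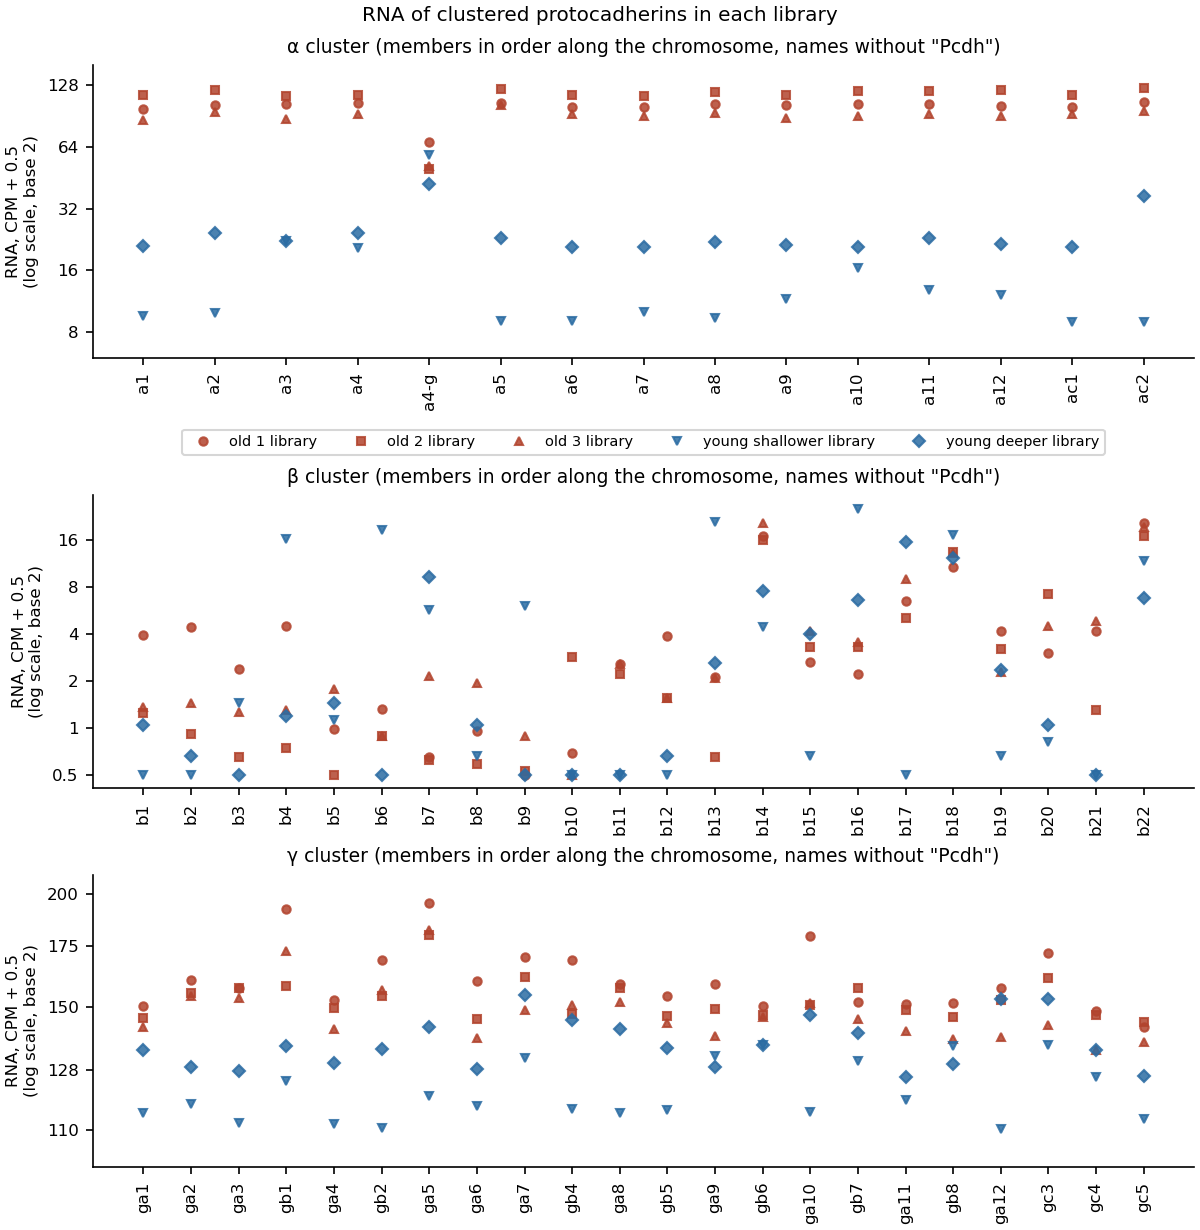
RNA of each member in each library, as CPM plus 0.5 on a log axis (base 2, with a different range for each cluster), with the 3 old libraries in red and the 2 young libraries in blue. In the α panel, 14 of 15 members have all old points above both young points, with Pcdha4-g between them, whereas the points of the γ panel lie within a narrow range and those of the β panel change order from member to member.

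In the α cluster, 14 of 15 members rose in old β cells and 0 fell at an adjusted p under 0.05 in edgeR's quasi-likelihood test, against 3.17% of the 15544 genes tested that rose and 7.93% that fell. Their log2 fold changes ran from 2.36 to 2.97, with standard errors of 0.28 to 0.55 and adjusted p-values of 0.00522 to 0.0328. The median over all genes tested was −0.05. Pcdha1, the outermost member, stood at 97.6, 114 and 85.9 CPM in the old libraries and at 9.09 and 20.6 CPM in the young ones. Every old library was thus above both young libraries, by a log2 fold change of 2.88 ± 0.41 (SE; edgeR adjusted p = 0.00806). The groups did not overlap for any of the 14 members that rose, where 18.7% of all genes tested had every old library above both young ones.

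The C-type member Pcdhac1 followed Pcdha1 closely, with 99.8, 114 and 92.2 CPM in old and 8.47 and 20.3 CPM in young libraries (log2 fold change 2.97 ± 0.42, edgeR adjusted p = 0.00805). Pcdhac2, the C-type member nearest to the constant exons and the member with the highest mean, reached 106.0, 124 and 95.2 CPM in old and 8.47 and 36.2 CPM in young libraries. Its groups did not overlap either, but its young libraries lay further apart than those of any other α member, and its log2 fold change was 2.42 ± 0.55 (edgeR adjusted p = 0.0328). The call of Pcdhac2 was lost when any 1 of the old libraries was left out, while the other 13 members kept theirs in every alternative that fitted members separately. Pcdha3 had the smallest fold change of the called members, with 102.6, 113 and 87.1 CPM in old against 21.8 and 21.9 CPM in young libraries (log2 fold change 2.36 ± 0.28, edgeR adjusted p = 0.00522). Pcdha4 was close to it, with 104, 115 and 91.6 CPM in old and 20.1 and 23.8 CPM in young libraries. The remaining 9 called members lay between 88.0 and 122 CPM in the old libraries and between 8.62 and 23.7 CPM in the young ones.

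The exception, Pcdha4-g, is a transcript that begins at the start of Pcdha4 and runs to the last exons of the γ cluster. It stood at 67.1, 49.4 and 51.4 CPM in old and at 58.0 and 41.6 CPM in young libraries. Its groups overlapped, and its log2 fold change of 0.32 ± 0.31 did not pass the test (edgeR adjusted p = 0.531).

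The α members are not independent measurements. In the old libraries the highest of the 14 members that end in the α constant exons had 1.09, 1.10 and 1.18 times the count of the lowest, so the members had nearly equal counts. Entered as 1 feature by its lowest member, Pcdha1, the cluster gave 1 call with a log2 fold change of 2.89 (edgeR adjusted p = 0.00823). The lowest count of any member in a library is an upper limit for reads that all members share, and it was 98.8 ± 13.5 CPM in old (SD, n = 3) and 14.4 ± 8.38 CPM in young libraries (SD, n = 2). Counts above that level, summed over the members, were 67.1 ± 12.1 CPM in old and 38.5 ± 10.1 CPM in young libraries. The sources used here give no counts per exon, so the reads that belong to single members were not measured.

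In the young libraries the members could be told apart in part. In the shallower young library, 3 members lay over 50% above the lowest count of 54: Pcdha3 by 85 reads, Pcdha4 by 74 and Pcdha10 by 48. In the deeper young library only Pcdhac2 did so, by 205 reads above 262, while Pcdha4 was 45, Pcdha3 20 and Pcdha10 1 read above. Different members thus passed 50% in the 2 young libraries, although Pcdha3 and Pcdha4 were above the lowest count in both. In the old libraries no member lay 50% above the lowest, and the highest was Pcdhac2 in 2 of them and Pcdha5 in the other, by 224, 360 and 369 reads.

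The γ cluster had 0 of 22 members called in edgeR's quasi-likelihood test, 4 with an unadjusted p under 0.05 (Pcdhga3, Pcdhga5, Pcdhgb1 and Pcdhgb2), and 1 (Pcdhga5) called by DESeq2. All 22 fold changes were above 0, between 0.28 and 0.66 on the log2 scale with a median of 0.41, and the lowest adjusted p was 0.0918. The sign of all 22 was kept with RLE size factors, which lowered their median to 0.29 and that of all genes to −0.17. Pcdhga5, the γ member with the highest mean, stood at 195, 180 and 182 CPM in old and 119 and 142 CPM in young libraries. Its groups did not overlap, with a log2 fold change of 0.66 ± 0.23 (edgeR adjusted p = 0.0918).

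Among the C-type γ members, Pcdhgc3 stood at 172, 161 and 143 CPM in old and 136 and 153 CPM in young libraries, and these ranges overlapped. Pcdhgc4 stood at 148, 147 and 134 CPM against 125 and 134 CPM, and Pcdhgc5 at 142, 144 and 137 CPM against 112 and 125 CPM. Both had the old libraries above the young, the first by less than 1 CPM, and neither passed the test (edgeR adjusted p = 0.401 and 0.265). In all, 19 of the 22 γ members had every old library above both young ones, against 18.7% of all genes tested, the others being Pcdhga7, Pcdhga12 and Pcdhgc3. These values are close to 1 measurement, as the γ members share their constant exons, and the cluster entered as 1 feature was not called (edgeR adjusted p = 0.265). The lowest γ count, which limits the shared reads, was 140 ± 5.22 CPM in old (SD, n = 3) and 118 ± 10.97 CPM in young libraries (SD, n = 2), and the highest member had 1.23 to 1.37 times the lowest in all 5 libraries. Pcdhga5 was the highest γ member in each old library, whereas Pcdhgb6 was the highest in the shallower young library and Pcdhga7 in the deeper one.

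Of the 22 β members, 20 passed the filter on low counts, and Pcdhb9 and Pcdhb10 did not. None was called in edgeR's quasi-likelihood test, although 9 had an unadjusted p under 0.05. DESeq2 called 5, with Pcdhb11, Pcdhb14, Pcdhb20 and Pcdhb21 higher and Pcdhb16 lower in old. The median log2 fold change was 1.12, with 12 of 20 above 0. In 8 members every old library was above both young ones (18.7% of all genes tested) and in 3 members, Pcdhb7, Pcdhb13 and Pcdhb16, every old library was below (28.1%).

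The highest β level was that of Pcdhb22, with 19.9, 16.5 and 18.8 CPM in old and 11.1 and 6.28 CPM in young libraries. The old libraries were all above the young, with a log2 fold change of 1.24 ± 0.51 (edgeR adjusted p = 0.148). Pcdhb14 stood at 16.3, 15.4 and 20.1 CPM in old against 3.92 and 7.06 CPM in young libraries, again without overlap (log2 fold change 1.81 ± 0.56, edgeR adjusted p = 0.0726). Pcdhb18 was the most even of the abundant β members, with 10.2, 12.8 and 12.6 CPM in old and 16.8 and 11.8 CPM in young libraries. Pcdhb16 went the other way, from 24.8 and 6.13 CPM in young to 1.72, 2.77 and 3.06 CPM in old libraries (log2 fold change −2.45 ± 0.80, edgeR adjusted p = 0.0849). Pcdhb17 had 0 counts in the shallower young library and 14.9 CPM in the deeper, around old values of 5.96, 4.56 and 8.45 CPM, so that its fold change depended on which young library was used.

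Some β members were seen at 1 age or mainly in 1 library. Pcdhb21 had 0 counts in both young libraries and 3.64, 0.804 and 4.33 CPM in the old ones. Against a floor of 3 counts over both young libraries, its level was at least 17.3-fold higher in old (edgeR adjusted p = 0.0570). Pcdhb11 also had 0 counts in both young libraries, with 2.06, 1.70 and 2.08 CPM in the old ones, at least 12.3-fold higher (edgeR adjusted p = 0.0612). Conversely, Pcdhb6 stood at 18.0 CPM in the shallower young library, at 0 in the deeper and below 1 CPM in each old library.

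The sum over the 22 β members was 88.5, 72.5 and 90.1 CPM in old and 124 and 65.9 CPM in young libraries, so the ranges of the ages overlapped. Within it, the ranking of members was similar between old libraries, with Pearson's r of 0.735 to 0.796 between pairs over the 22 members on the log2(CPM + 0.5) scale. Between the young libraries r was 0.379. Each old library had r of 0.0717 to 0.177 with the shallower young library and 0.450 to 0.736 with the deeper. These correlations describe pairs of libraries that differ in depth and carry no test. For comparison, over all 15544 genes tested r was 0.959 to 0.967 between old libraries and 0.755 between the young ones.

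H3K27me3, the histone mark of Polycomb repression, covered the young α cluster, was nearly absent from the old one, and was not found in the γ cluster at either age. In young cells, 14 of 15 α promoters overlapped an H3K27me3 region (1 kb before to 500 bp after the start), where 27.1% of all 25620 promoters did. In old cells 1 of 15 did, the promoter of Pcdhac2, where 40.7% of all promoters did. The remaining 13 were marked in the young list only, a class that held 4.52% of all promoters. Pcdha7 was marked at neither age. Pcdha4 and Pcdha4-g were each counted, here and in the α promoter medians and counts of methylation below, although their windows nearly coincide. Each list came from 1 library, so no replicate check was possible.

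The α cluster, from the start of Pcdha1 to the constant exons (mm9, chromosome 18, 37089939 to 37347314, plus strand), held 5 young H3K27me3 regions that covered 135 kb, or 52.6% of its 257 kb. The old list had a single region of 6 kb there, 37301001 to 37307000, which covered 2.33% and lies over the start of Pcdhac2. The region over Pcdha1 to Pcdha6 was 45 kb wide (37084001 to 37129000), that over Pcdha8 to Pcdha12 34 kb (37149001 to 37183000), that over Pcdhac1 15 kb (37243001 to 37258000) and that over Pcdhac2 40 kb (37295001 to 37335000). The fifth, 44 kb wide, lies over the end of the cluster and overlaps no promoter. By the authors' score, which ranks regions within a list, these 5 stood between the 86.7th and 96.7th percentile of the 31187 young regions. Among all young regions with a score at least as high as the lowest of the 5, 239 of 4144 (5.77%) had no overlap with an old region, and 4 of the 5 α regions had none. The old list as a whole was the larger, with 38007 regions over 649 Mb against 452 Mb in the young list.

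The β cluster (37424652 to 37681073, plus strand) held H3K27me3 at both ages, at partly different promoters. It held 10 young regions that covered 44.2% of its length and 8 old regions that covered 29.2%. Of its 22 promoters, 15 overlapped a region in young and 13 in old cells: 9 at both ages (22.6% of all promoters), 6 in young only (4.52%), 4 in old only (18.1%) and 3 at neither age. The γ cluster (37821599 to 38001526, plus strand) held no H3K27me3 region at either age, and 0 of its 22 promoters lay within 5 kb of one.

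**Figure D2:**
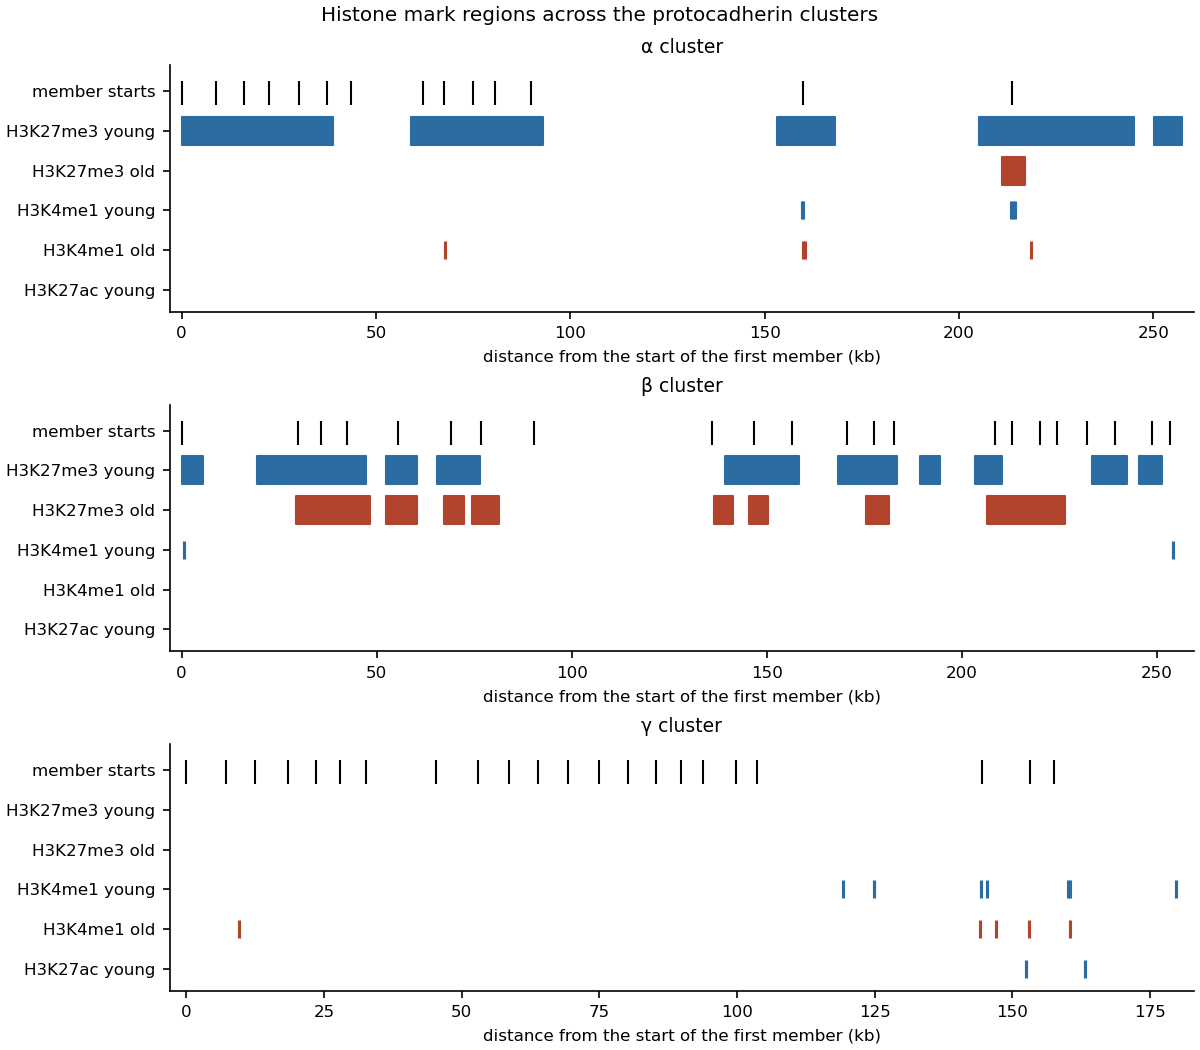
Regions of the deposited H3K27me3, H3K4me1 and H3K27ac lists along each cluster, by distance in kb from the start of its first member, with member starts as black ticks, young lists in blue and old lists in red. Bars show H3K27me3 regions to scale, clipped at the cluster's ends, and short ticks mark the centres of H3K4me1 and H3K27ac peaks. The α cluster has 5 young bars and 1 old bar, the β cluster has bars at both ages and the γ cluster has none.

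In the β cluster the H3K27me3 state could be set beside the RNA of each member, because these genes do not share exons. The 6 members marked in young only were Pcdhb1, Pcdhb11, Pcdhb12, Pcdhb14, Pcdhb20 and Pcdhb21, and in all 6 every old library was above both young ones, as in 18.7% of all genes tested. Their summed RNA was 31.3, 26.5 and 32.4 CPM in old and 4.23 and 8.30 CPM in young libraries. The median log2 fold change was 3.93, or 3.55 with Pcdhb11 and Pcdhb21 placed at their lower bounds. None of the 6 passed edgeR's test on its own. The class depended on the window: with the start extended by 5 kb to each side, Pcdhb12 and Pcdhb14 also overlapped an old region. Pcdhb12 and Pcdhb14 lay in the same young region. The young regions over the 6 had scores between percentiles 34.4 (Pcdhb21) and 66.9 (Pcdhb11) of the young list.

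The 9 members marked at both ages summed to 15.2, 6.55 and 11.1 CPM in old and 61.0 and 16.1 CPM in young libraries. Of the 8 tested, 3 had a fold change above 0, and the median was −1.18. The 4 marked in old only (Pcdhb9, Pcdhb16, Pcdhb17 and Pcdhb18) had 0 of 3 tested above 0, with a median of −0.11. Pcdhb17 and Pcdhb18 lay near 0, at −0.07 ± 1.42 and −0.11 ± 0.50, and only Pcdhb16 lay far below, at −2.45 ± 0.80. The 4 summed to 17.8, 20.1 and 24.5 CPM in old against 47.0 and 32.8 CPM in young libraries. The 3 marked at neither age (Pcdhb8, Pcdhb19 and Pcdhb22) had 3 of 3 above 0 with a median of 1.24. With 5 kb to each side, Pcdhb9 and Pcdhb16 of the old-only class and Pcdhb19 and Pcdhb22 of the last class overlapped a young region. RNA was not confined to unmarked members: those marked in young cells held 52.7% and 37.0% of the β counts of the shallower and deeper young library, and those marked in old cells 36.8% to 39.5% of the counts of the old libraries. RNA and chromatin came from different mice.

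**Figure D3:**
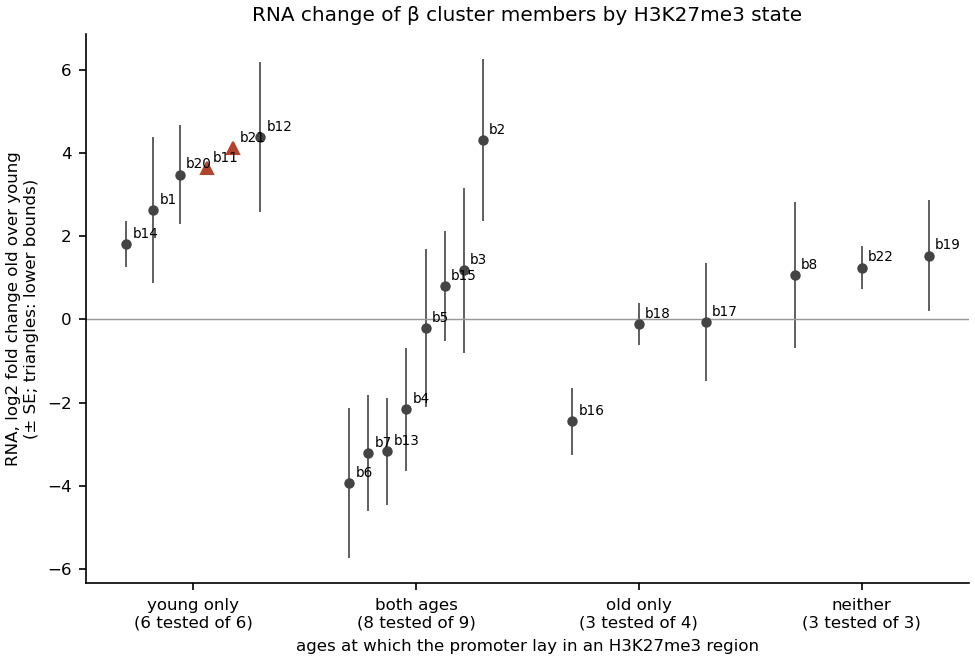
Log2 fold change of RNA (old over young, points with the standard error from edgeR) of the 20 tested β members, grouped by the ages at which their promoter overlapped an H3K27me3 region. Triangles are the lower bounds of Pcdhb11 and Pcdhb21, which had 0 counts in young libraries. All 6 members of the young-only group lie above 0. The 3 tested members of the old-only group lie below 0, Pcdhb17 and Pcdhb18 by less than their standard error.

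Marks of active regulatory elements were sparse at the members' starts and lay mainly at C-type members (3 of 4 overlapping H3K4me1 at each age). H3K4me1, found at enhancers and around active promoters, overlapped 4 of 59 member promoters in young and 4 in old cells, where 36.7% and 21.8% of all promoters were overlapped. In the α cluster Pcdhac1 had such a peak at both ages and Pcdhac2 in young cells only, and Pcdha9 had a low-ranking peak in old cells. Pcdhgc3 had a peak at both ages and Pcdhgc4 in old cells only. The fourth young peak was at Pcdhb1. H3K27ac in young cells overlapped 1 member promoter, that of Pcdhgc4, where 33.1% of all promoters were overlapped. Over whole clusters, from the first start to the last end, H3K4me1 peaks numbered 5 in young and 4 in old cells for α, 2 and 0 for β, and 7 and 5 for γ. The peak at the Pcdhb1 promoter lies before the first β start and is not among these.

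Promoter CpG methylation of the members was intermediate at both ages. It was read from 1 bisulfite library per age, over CpGs with at least 5 reads in both, so each comparison is of these libraries and not of the ages. The median promoter methylation was 34.2% in old and 41.3% in young cells for the α cluster, 44.9% and 49.8% for the β cluster, and 36.9% and 42.3% for the γ cluster. Taken promoter by promoter, the median difference was smaller: −1.99 points for α, 1.08 for β and −0.43 for γ members. Old cells had the higher value at 4 of 15 α, 12 of 22 β and 11 of 22 γ promoters. The median over all 22988 promoters measured was 10.2% in old and 10.6% in young cells. At both ages, 37 of 59 members (62.7%) lay between 10% and 50%, against 14.9% of all promoters. Single CpGs were intermediate too: of those with at least 10 reads, 52.1% of α, 55.5% of β and 58.2% of γ promoter CpGs lay between 20% and 80% in the young library, and 54.7%, 66.3% and 55.6% in the old library. Over all promoters these shares were 12.8% in young and 11.7% in old cells.

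The C-type promoters departed from this level in both directions. Pcdhac2 was almost unmethylated, at 3.83% in old (95% Wilson interval 3.32 to 4.41) and 2.86% in young cells (2.49 to 3.28). Pcdhgc3 was similar, at 4.98% in old (4.30 to 5.76) and 2.48% in young cells (2.03 to 3.04). Pcdhgc4 stood at 7.13% in old (5.81 to 8.72) and 11.7% in young cells (10.2 to 13.3), and Pcdhac1 at 22.6% (20.9 to 24.4) and 23.1% (21.2 to 25.2). Pcdhgc5 was instead the most methylated of all 59 promoters at both ages, at 83.5% in old (80.2 to 86.3) and 80.9% in young cells (77.4 to 84.1). Such intervals cover counting error only, as reads of a library are not independent molecules and CpGs of a promoter share reads.

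Between the ages, 2 members gained and 10 lost promoter methylation by at least 10 percentage points at an adjusted p under 0.05 (Fisher's exact test with Benjamini-Hochberg adjustment over all promoters). Over all promoters 3.95% gained and 4.72% lost, 8.67% in all. These shares are not of like promoters: 43.4% of all promoters lay under 10% at both ages, against 3.39% of members. A promoter under 10% in young cells cannot lose 10 points. In the α cluster, Pcdha2 fell from 52.9% (49.2 to 56.5) in young to 36.0% (32.5 to 39.7) in old cells, Pcdha7 from 48.2% (44.8 to 51.5) to 33.2% (30.4 to 36.1), and Pcdha1 from 46.7% (43.7 to 49.8) to 32.1% (29.1 to 35.3). The other calls were in the opposite direction. Pcdha5 rose from 33.3% (30.2 to 36.7) to 45.8% (41.4 to 50.3), and Pcdha6 from 36.1% (32.4 to 40.0) to 48.8% (44.6 to 53.0). The α cluster thus had calls in both directions, with a median difference of −1.99 percentage points beside 0.11 over all promoters. The gain of Pcdha5 was 9.59 points and not called with at least 10 reads per CpG. Next in size among its gains, Pcdha8 differed by 2.62 points and was not called.

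In the β cluster all 4 calls were losses. Pcdhb19 fell from 43.2% (36.0 to 50.7) to 21.9% (17.2 to 27.3), the largest difference of any member, and Pcdhb3 from 57.4% (50.3 to 64.2) to 38.0% (33.1 to 43.1). Pcdhb21, whose RNA was seen in old libraries only, fell from 55.7% (50.5 to 60.8) to 43.3% (37.8 to 49.1). That loss depended on the window: from 500 bp before the start Pcdhb21 stood at 40.4% in old and 40.9% in young cells (Fisher's exact test, adjusted p = 0.948), and with CpGs weighted equally the difference was −2.50 points. Pcdhb4 fell from 55.2% (48.8 to 61.5) to 43.0% (37.3 to 49.0). The largest differences upward, of 9.84 points for Pcdhb11, 9.13 for Pcdhb12 and 8.79 for Pcdhb22, fell short of 10 points. All 3 also had every old RNA library above both young ones, as had 8 of 22 β members and 18.7% of all genes tested. Members with smaller differences upward had RNA in both directions: Pcdhb2 had every old library above both young ones and Pcdhb16 every old library below. In other windows β gains were called, for Pcdhb18 by 15.7 points with 500 bp before the start and for Pcdhb11 by 12.0 points with 2 kb. Pcdhb14, Pcdhb16, Pcdhb17 and Pcdhb18, the other abundant β members, differed by 1.21, 5.42, 2.86 and 4.55 points.

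In the γ cluster the 3 calls were losses as well. Pcdhgb2 fell from 63.6% (59.4 to 67.6) to 45.2% (41.7 to 48.8), Pcdhga1 from 44.6% (40.4 to 48.9) to 29.0% (26.3 to 31.8), and Pcdhga4 from 41.5% (38.8 to 44.2) to 30.8% (28.0 to 33.9). The largest differences upward were 8.56 points for Pcdhga3, 7.68 for Pcdhga11 and 7.13 for Pcdhga12, none of which reached 10 points. The sign of Pcdhga12 turned with 2 kb before the start, to −5.98 points over 49 CpGs in place of 13, and there Pcdhga4 differed by −8.98 points and lost its call. Pcdhga5, the most abundant γ member, stood at 19.8% in old (17.9 to 21.8) and 21.3% in young cells (19.3 to 23.5). Across the γ members Pearson's r between old and young methylation was 0.915 and Spearman's rho 0.899 (n = 22). The β members had r of 0.613 and rho of 0.595 (n = 22), and the α members r of 0.728 and rho of 0.534 (n = 14, with Pcdha4-g counted with Pcdha4, whose window it shares), so their order was kept more loosely. These are correlations across promoters, which are not replicates.

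**Figure D4:**
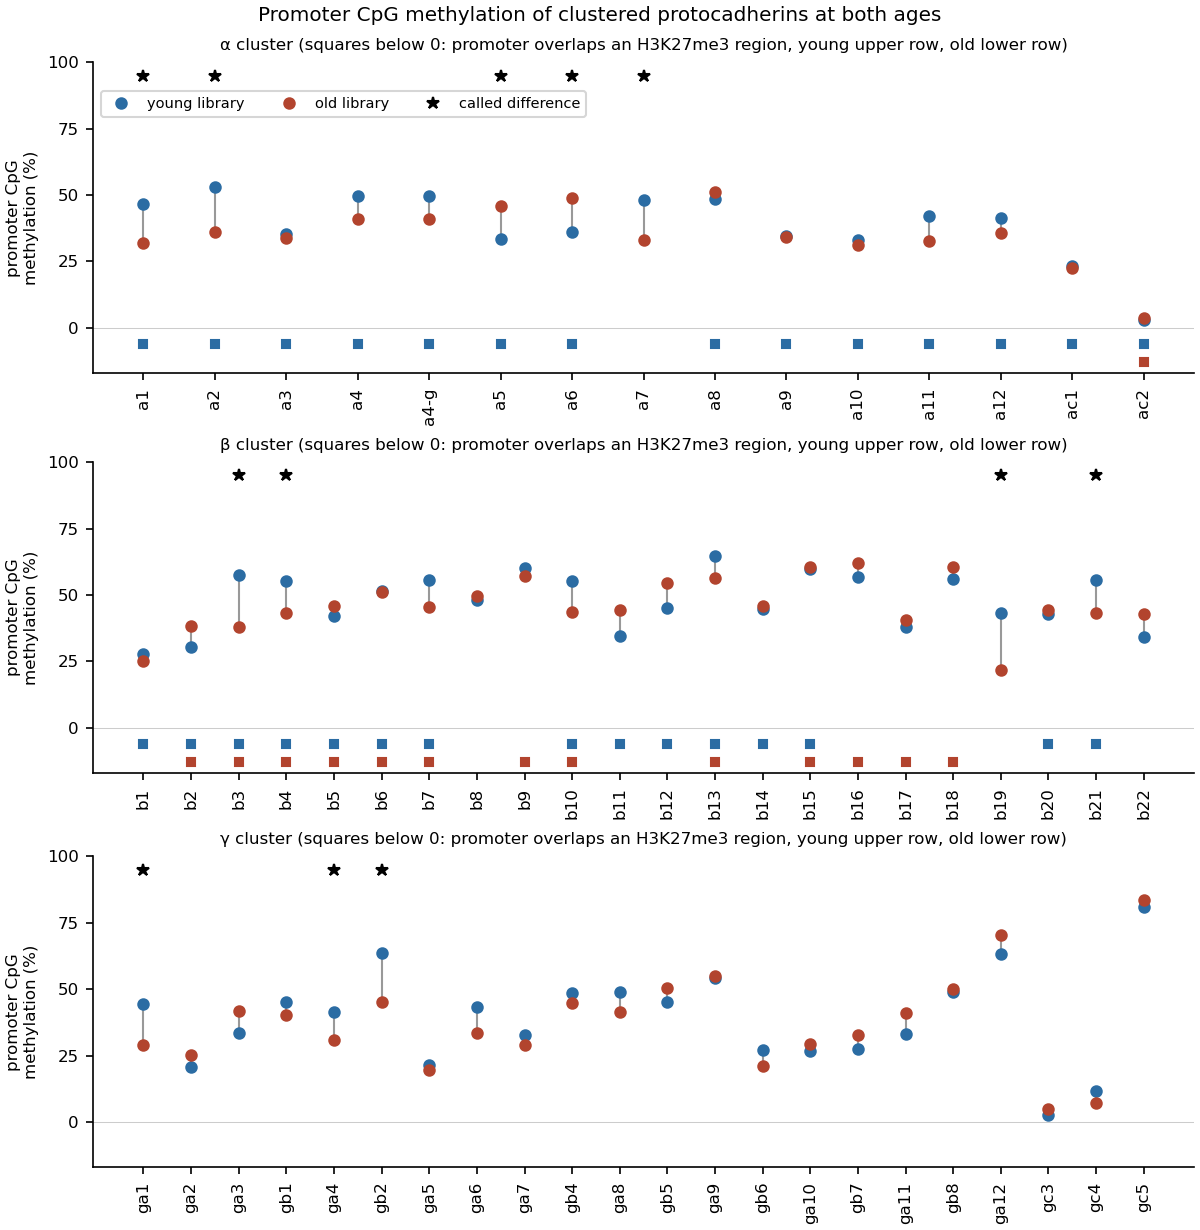
Promoter CpG methylation (%) of each member in the young (blue) and old (red) library, joined by a grey line, with stars over the 12 called differences. Squares below 0 mark promoters that overlap an H3K27me3 region in the young (upper row) or old list (lower row). Most members lie between 20% and 65% at both ages, Pcdhac2 and Pcdhgc3 lie below 5%, and Pcdhgc5 lies above 80%.

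Around the starts, methylation dipped sharply in each cluster at both ages. In the 250 bp before the start it was 19.4% in old and 21.9% in young cells for α members, 24.8% and 28.5% for β members, and 22.7% and 24.1% for γ members, where all promoters stood at 8.08% and 7.33%. The dip was narrowest in the β cluster, where methylation had risen to 65.9% in old and 66.7% in young cells 250 to 500 bp before the start. Downstream, from 500 to 2500 bp after the start, the median was 59.7% in old and 59.4% in young cells for α, 62.0% and 59.9% for β, and 67.2% and 65.6% for γ members. There, 12 of 14 α members were higher in old cells, with a median difference of 3.14 points, beside 0.62 for β, 0.41 for γ and −0.12 over all promoters. The median promoter difference of the α cluster had the opposite sign. With calls summed over all RefSeq starts, however, old cells were higher in every 250 bp bin of this stretch. In the bin from 1250 bp, all starts stood at 42.3% in old and 39.4% in young cells, and α members at 61.1% and 58.6%. The downstream difference was thus not particular to α members.

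**Figure D5:**
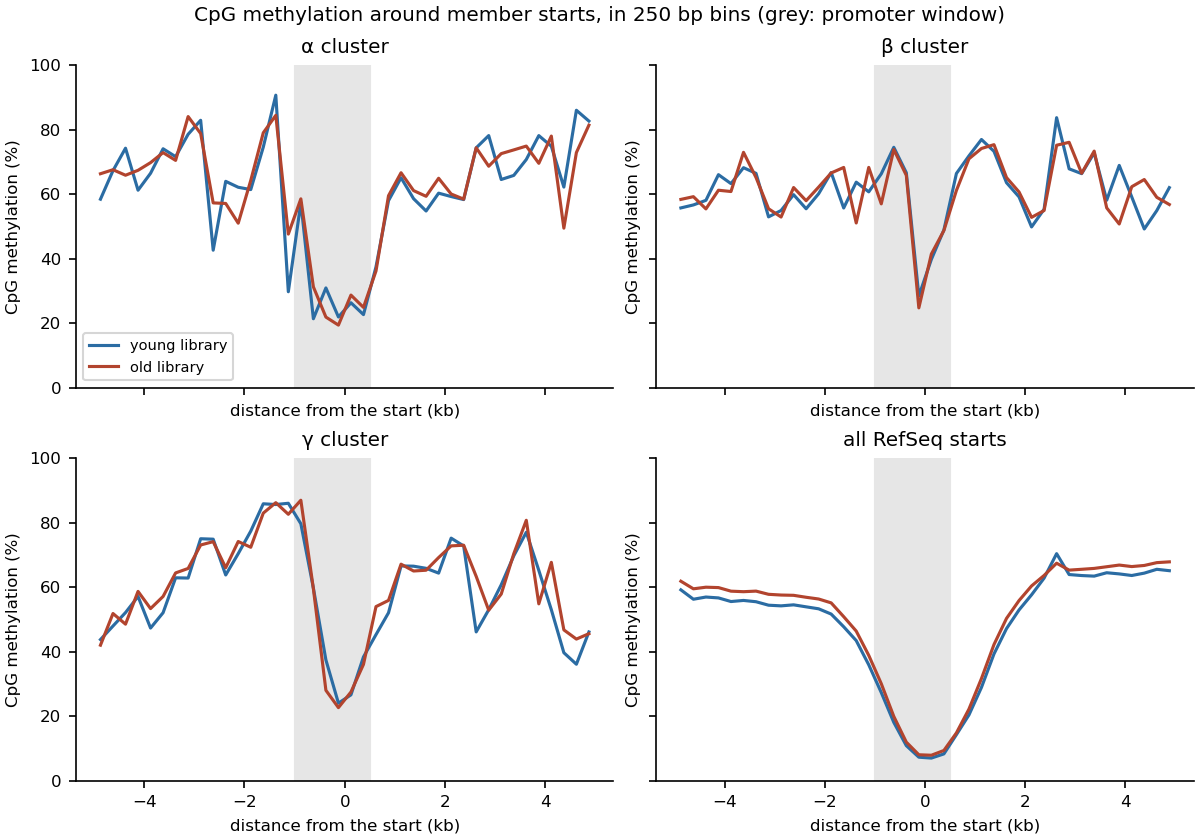
CpG methylation (%) by distance from the start (kb), summed over the members of each cluster and over all RefSeq starts in 250 bp bins, with the young library in blue and the old library in red. The grey band is the promoter window, and the dip of the members reaches about 20% to 28% where that of all starts reaches about 8%.

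Methylation and RNA of the β members were set side by side as well. Across 22 members, r between promoter methylation and mean log2(CPM + 0.5) was 0.356 in young and −0.03 in old cells, and across the 20 tested members r between the change in methylation and the change in RNA was 0.18. These are descriptions across genes of single bisulfite libraries. No such comparison was made for the α and γ members, whose transcripts share exons.

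Among 41 regulators and partners of the clustered protocadherins, of which 40 were tested, 1 rose and 3 fell, a share near the 11.1% called over all genes tested. Nckap1, a subunit of the WAVE complex that the cytoplasmic tails of these proteins engage, rose from 155 and 145 CPM in young to 295, 270 and 195 CPM in old libraries (log2 fold change 0.90 ± 0.24, edgeR adjusted p = 0.0481). That call was lost with RLE size factors, where 0 regulators rose. The other WAVE subunits of the list, Cyfip1, Abi1 and Wasf1, had log2 fold changes of 0.06, −0.46 and −1.30, and none was called. Rest, a repressor of neuronal genes, fell from 24.9 and 8.69 CPM to 0.0750, 0 and 0.297 CPM (edgeR adjusted p = 0.0239). Uhrf1, which guides maintenance DNA methylation in dividing cells, fell from 2.51 and 15.4 CPM to 0.0375, 0.0298 and 0.127 CPM (edgeR adjusted p = 0.0235). Ehmt2, a histone H3 methyltransferase, fell from 177 and 146 CPM to 59.1, 64.6 and 82.3 CPM (edgeR adjusted p = 0.0451). Both young libraries, in which Rest and Uhrf1 were seen, also held more RNA of other cell types, and the part of that RNA was not tested.

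The factors best known for promoter choice did not pass the test. Ctcf stood at 67.3, 53.3 and 51.5 CPM in old and 45.8 and 70.5 CPM in young libraries (edgeR adjusted p = 0.811). Smchd1, a repressor of clustered protocadherins in other tissues, stood at 67.8, 55.9 and 49.8 against 19.6 and 69.4 CPM (edgeR adjusted p = 0.513). Of the DNA methyltransferases, Dnmt3a stood at 171, 176 and 165 against 120 and 219 CPM and Dnmt3b at 25.3, 21.5 and 27.5 against 14.0 and 19.5 CPM (edgeR adjusted p = 0.740 and 0.277). Only the Dnmt3b libraries did not overlap between the ages among these 4 genes.

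Of 12 protocadherins outside the clusters, 10 were tested, 2 fell and 0 rose, where 7.93% of all genes tested fell. All 10 fold changes were below 0, with a median of −2.61 on the log2 scale. Pcdh17 fell from 43.9 and 40.6 CPM in young to 6.30, 1.01 and 3.01 CPM in old libraries (log2 fold change −3.47 ± 0.70, edgeR adjusted p = 0.0240). Pcdh7 fell from 7.06 and 18.8 CPM to 0, 0.328 and 0.0424 CPM (edgeR adjusted p = 0.0308). The calls of both lists rested on few libraries: without single libraries they numbered 0 to 13 for the regulators and 0 to 5 for the non-clustered protocadherins.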

How the data were processed

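The members and gene lists were chosen with earlier results of these data known. The deposited table holds read counts per RefSeq transcript (28644 transcripts), and reads in shared exons count for each transcript that has them. The build mm9 and the tools STAR, HOMER, edgeR, Bowtie 0.12.7 and CASAVA 1.8.2 are listed in the submitters' processing notes, without roles. No source used here says whether counting used strand. The deposited FPKM table served for transcript positions and for lengths, from the ratio of count to FPKM. There, 100% of the entries for the third old library repeat those for the shallower young one, and that 1 per-sample column was not used. The young count columns carry no replicate number. Nothing says that pools were free of shared batches, so the RNA p-values measure the spread between these libraries. Those of Fisher's exact test measure the counting of reads in 1 library per age, and no spread between libraries.

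Each gene was represented by its transcript with most counts in total. Libraries were compared with edgeR 4.0.16 in R 4.3.3 (quasi-likelihood test, TMM factors, filterByExpr, two-sided, Benjamini-Hochberg, threshold 0.05) and, as an alternative, DESeq2 1.42.0. CPM is the count scaled to the sum over genes of its library. In place of a cluster, the member with the lowest total count was entered, and Pcdha4-g was passed over for this because it does not end in the α constant exons. A fold against a group at 0 is a bound at 3 counts over that group.

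Per the file headers, the score of H3K4me1 and H3K27ac peaks is that of HOMER findPeaks on 1 library against 1 input. The deposited H3K27me3 lists carry an unlabelled score, and no source used here names their caller. Scores were used for ranks inside a list alone. Overlap was at least 1 bp. The deposited CpG tables hold the methylated fraction and the coverage count of each CpG, with 19569012 CpGs at a median coverage of 18 in the old and 18795223 at 16 in the young library. Methylated calls were fraction times coverage, summed over CpGs with at least 5 reads in both libraries, for promoters with at least 5 such CpGs (scipy 1.17.1). Input libraries were not analysed here.

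By the naming rule, values in each library were given for the members called, the highest member of each cluster, the C-type members and the 5 β members with the highest mean, with most called α members given by their range because their counts are shared. Further β members (Pcdhb6, Pcdhb11 and Pcdhb21) were chosen after their values were seen. Promoters named were the 3 largest losses and gains of each cluster and those called. The tests were checked on simulated data.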

Additional observations from a re-analysis of the deposited data

How the results depend on the processing

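No paired analysis was possible because the young RNA columns carry no replicate numbers. Among the values that answer a comparison, 105 recomputed under an alternative kept to their tolerance (counts within 1.5 times, tests the same call, median differences within the counting interval), and the cause was not tested for the 34 that moved. Calls in the α cluster went from 14 to 1 with shared exons as 1 feature, by construction. With Pcdhac1 or Pcdhga11 in place of the lowest member, chosen after seeing the data, the α feature was still called and the γ feature was not. DESeq2 gave 5 calls for β, 1 for γ and 7 for the non-clustered protocadherins. Without single libraries, calls ran from 13 to 14 for α, 0 to 5 for β, 0 to 1 for γ, 0 to 13 for regulators and 0 to 5 for non-clustered protocadherins. The β calls appeared without a young library: Pcdhb21 and Pcdhb22 rose without the shallower one (2 calls), and without the deeper one (5 calls) Pcdhb14 and Pcdhb17 rose and Pcdhb6, Pcdhb13 and Pcdhb16 fell.

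Promoter methylation calls numbered 0 (α), 1 (β) and 0 (γ) at 20 points or more and 10, 9 and 13 with no minimum. The median difference for α was −3.34 points from 1 read, −3.07 in the window of 500 bp to each side and −4.51 with CpGs weighted equally. For β it was 2.86 from 10 reads, −0.08 from 1 read, −1.07 from 2 kb before the start and −1.02 with equal weights, beside 1.08, so its sign is not settled. For γ it was −1.23 from 2 kb and −3.33 with equal weights. In the upper part of each list by score, old H3K27me3 overlapped 0 α and 4 β promoters, old H3K4me1 1 α, young H3K4me1 0 β and young H3K27ac 0 γ promoters.

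Among single genes, signs turned without the shallower young library for 4, whose log2 fold changes without single libraries ran from −0.13 to 0.48 for Ctcf, −0.10 to 1.71 for Smchd1, −0.19 to 0.66 for Dnmt3a and −0.34 to 0.18 for Pcdhb18. That of Pcdhb17 ran from −1.05 without the shallower to 10.19 without the deeper young library (a fitted value against 0 counts), with 2.18e-04 and 0.12 without old library 1 or 2. The 2 young RNA libraries of unequal depth and 1 chromatin and bisulfite library per age limit all comparisons.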
